A study of Homo sapiens with 20 samples.

Results

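The genes described here are 10 chemokines: CCL2, CCL5, CCL20, CXCL1, CXCL2, CXCL3, CXCL8, CXCL10, CXCL11 and CXCL16. They were taken by symbol from a table of 24196 genes, with earlier results of these data known. Of the 10, 9 were measured. CCL2 was not analysed here. All 9 had a mean level high enough to be tested.

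The measurements were bulk polyA RNA-seq of orthotopic tumors grown in NSG mice from OVCAR8, a cell line of human ovarian carcinoma. NSG is an immunodeficient strain that lacks its own lymphocytes. All 8 tumors carried the same background, OVCAR8-sgNC-luc, which is a line with a non-targeting guide and luciferase, placed in the ovarian fat pad of mice that were 6 weeks old. One group of 4 received PBS, and the other group of 4 received sodium gluconate at 1 mg/kg by intraperitoneal injection once a week over 35 days. The comparison asks which tumor transcripts differ with gluconate. Nothing in the labels says that the 4 libraries of a group came from 4 separate mice, so p-values measure the spread between these libraries.

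Levels are given in FPKM, the fragments of a gene scaled by its length and by the fragments of its library, a unit that sets genes of different length on one scale. In 7 libraries the FPKM denominator held 39325749 to 46551535 fragments, whereas PBS replicate 4 held 3953206, and 15514 genes were above 0 there against 19991 to 20251 elsewhere. PBS replicate 4 therefore stands apart by depth, and the group differences that the text turns on are given with and without it. In that library the counts behind the chemokines ran from 4 fragments for CXCL3 and CXCL16 to 279 for CCL5. The 95% Poisson intervals quoted below cover counting error only.

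Chemokines are small secreted proteins that guide migrating cells along gradients by binding receptors with 7 membrane passes. CCL5, CXCL10 and CXCL11 are typical products of cells that sense viral nucleic acids or interferon, and they attract T cells and natural killer cells. CXCL1, CXCL2, CXCL3, CXCL8 and CCL20 are classical products of NF-kappaB signaling. The first 4 of these act on CXCR1 and CXCR2 and draw neutrophils, and CCL20 acts on CCR6 of dendritic cells and certain T cells. In ovarian carcinoma the tumor cells themselves can secrete members of both kinds.

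CCL5 was the most abundant of the 9 chemokines, with a median of 46.0 FPKM over the 8 libraries, followed by CXCL10 at 31.6 and CXCL11 at 7.27. CXCL1 had a median of 6.12 FPKM, CXCL8 of 2.82, CXCL2 of 2.38, CCL20 of 2.19, CXCL16 of 1.79 and CXCL3 of 1.03. CCL5 exceeded CXCL10 in 8 of 8 libraries, CXCL10 exceeded CXCL11 in 8 of 8, and CXCL1 exceeded CXCL8 in 8 of 8. The other neighbours in this order changed places between libraries: CXCL11 was above CXCL1 in 6 of 8, CXCL2 above CCL20 in 4 of 8, and CCL20 above CXCL16 in 5 of 8. CCL5 stood above 90.5% to 97.9% of all genes of the table, depending on the library, and CXCL3 above 52.0% to 55.9%.

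No chemokine passed the test for a difference between gluconate and PBS tumors, and the differences of the group means were within the spread between libraries. With limma on log2(FPKM + 0.1) and Benjamini-Hochberg adjustment over the 12486 genes tested, 0 of 9 members passed an adjusted p of 0.05, and 0.0% of all genes did. At an unadjusted p of 0.05 the members again numbered 0 of 9, against 4.62% of all genes (577). Without PBS replicate 4 these were 0 of 9 and 6.18% (772). The groups overlapped for all 9 members, while they did not overlap for 3.49% of all genes, or for 6.06% without PBS replicate 4. The median log2 fold change of the members was 0.01, beside 0.07 for all genes tested, and without PBS replicate 4 it was -0.01 beside -0.00. The smallest adjusted p of any gene was 0.74, and the two-sided exact permutation test of 4 against 4 libraries cannot give a p below 0.0286.

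CCL5, an attractant of T cells, macrophages and natural killer cells, varied more within each group than between them. Its FPKM was 64.2, 36.6, 26.0 and 54.3 in PBS replicates 1 to 4 and 70.6, 36.5, 37.6 and 115 in gluconate replicates 1 to 4. Gluconate replicate 4 was the highest library and PBS replicate 3 the lowest, and the other 6 lay between with the groups interleaved. These levels rest on 1345 to 6385 fragments in the 7 deep libraries and on 279 in PBS replicate 4, where the interval was 48.1 to 61.1 FPKM.

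The group mean of CCL5 was 45.3 ± 17.2 FPKM in PBS and 64.9 ± 36.9 in gluconate (SD, n = 4 each), a ratio of 1.43. The log2 fold change was 0.44 (SE 0.40, 95% interval -0.46 to 1.33), with a limma adjusted p of 0.748 and an exact permutation p of 0.4. Without PBS replicate 4 it was 0.55 (interval -0.37 to 1.48). With 1 library left out the value ran from 0.11, without gluconate replicate 4, to 0.66, without gluconate replicate 2, and it was 0.20 without PBS replicate 3. The interval over all 8 libraries includes a doubling as well as a modest decrease. The highest of the 7 deep libraries was 4.43-fold above the lowest. After 0.1 FPKM was added to every value, 0.913% of the genes tested matched or exceeded the range of CCL5. CCL5 lies on chromosome 17 from 35871491 to 35880793 on the minus strand (GENCODE 29, GRCh38), and no exon of another gene overlaps its exons.

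CXCL10 and CXCL11, ligands of CXCR3 that are induced by interferons, had the same order of libraries as one another across all 7 deep libraries. CXCL10 measured 36.4, 33.9, 15.5 and 13.1 FPKM in PBS replicates 1 to 4 and 34.6, 21.0, 29.3 and 77.9 in gluconate replicates 1 to 4. CXCL11 measured 8.97, 8.03, 2.97 and 3.93 FPKM in PBS and 8.65, 5.52, 6.50 and 18.1 in gluconate. For both, gluconate replicate 4 was far above every other library, PBS replicates 3 and 4 were the lowest, and the other 5 mixed the groups.

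For CXCL10 the log2 fold change was 0.68 (SE 0.44, 95% interval -0.32 to 1.68, limma adjusted p = 0.74, exact permutation p = 0.257). Without PBS replicate 4, in which it rested on 61 fragments, the value was 0.42. For CXCL11 it was 0.67 (SE 0.43, interval -0.30 to 1.65, limma adjusted p = 0.74, exact permutation p = 0.257), and 0.52 without that library. Without gluconate replicate 4 the values were 0.31 for CXCL10 and 0.32 for CXCL11, and without PBS replicate 3 they were 0.50 and 0.39. The group means were 24.7 ± 12.1 against 40.7 ± 25.4 FPKM for CXCL10 and 5.98 ± 2.97 against 9.69 ± 5.76 FPKM for CXCL11 (SD, PBS then gluconate, n = 4 each). The larger SD in gluconate came from replicate 4 in both genes.

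The ratio of CXCL10 to CXCL11 stayed between 3.34 and 5.22 in all 8 libraries, with a median of 4.14, while each gene alone spanned 5.93-fold and 6.11-fold. Among 12485 other genes compared over the 7 deep libraries, the gene most like CXCL10 was CXCL11, and the gene most like CXCL11 was CXCL10 (Pearson r of log2 values 0.98). Over all 8 libraries r was 0.97 and Spearman's rho 0.98, and leaving out PBS replicate 4 and gluconate replicate 4, the libraries farthest from the median of CXCL10, gave r = 0.98 over 6. The libraries share their depth and FPKM scaling, and r is given as a description.

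The genes are neighbours on chromosome 4, minus strand: CXCL10 from 76021117 to 76023497 and CXCL11 from 76033682 to 76041415 (GENCODE 29, GRCh38), with 10184 bases between them. Their promoters are shown because these 2 members moved together over the libraries. Each run holds the 250 bases before the RefSeq start (GRCh38.p14, minus strand, 5′ to 3′), chr4:76023498-76023747 for CXCL10 and chr4:76036071-76036320 for CXCL11. Capitals mark matches on either strand to GGGNNNNNCC, a kappaB-like pattern, and to GAAANNGAAA, a pattern like the interferon-stimulated response element.
CXCL10: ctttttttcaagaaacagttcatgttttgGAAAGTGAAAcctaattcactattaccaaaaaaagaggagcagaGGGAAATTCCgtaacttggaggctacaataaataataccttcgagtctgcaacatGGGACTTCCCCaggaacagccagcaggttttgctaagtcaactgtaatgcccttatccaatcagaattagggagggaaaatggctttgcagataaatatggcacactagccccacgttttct
CXCL11: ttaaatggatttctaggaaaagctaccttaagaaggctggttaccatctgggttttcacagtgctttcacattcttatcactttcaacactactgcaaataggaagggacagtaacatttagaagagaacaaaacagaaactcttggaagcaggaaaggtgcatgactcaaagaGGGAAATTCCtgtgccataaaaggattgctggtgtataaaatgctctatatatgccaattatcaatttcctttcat

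Both promoters held a match with the same 10 letters, which began 177 bases before the start in CXCL10 and 76 before it in CXCL11. CXCL10 held a second cluster of overlapping kappaB-like matches from 122 to 112 bases before the start and a GAAANNGAAA match from 221 to 212 before it. The kappaB-like pattern is loose: it occurred in 58.7% of 35116 RefSeq promoters of the same 300-base window and in 7 of the 7 members that had a promoter there. GAAANNGAAA occurred in 3.57% of promoters and in 1 of these 7 members. A match is a description of the letters and was not tied to a measurement of binding.

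CCL5 followed CXCL10 and CXCL11 less closely than these followed one another, and PBS replicate 4 was the library in which it departed most. Over the 7 deep libraries r was 0.91 with CXCL10 and 0.92 with CXCL11, and over all 8 it was 0.71 and 0.81 (rho 0.71 and 0.81). Without PBS replicate 3 and gluconate replicate 4, the libraries farthest from its median, r was 0.13 with CXCL10 and 0.27 with CXCL11 over 6. Those 6 still include PBS replicate 4. In the 5 libraries left when it was taken out as well, r was 0.62 and 0.75, values over so few libraries that they serve as a description only. In PBS replicate 4, CCL5 was above its own median and CXCL10 was at its lowest. The ratio of CCL5 to CXCL10 was 4.14 in that library and 1.08 to 2.04 in the other 7. The 3 genes most like CCL5 over the 7 deep libraries were MRPL58 (r = 0.99), a mitochondrial ribosomal protein, NLRX1 (0.99), a mitochondrial member of the NLR family, and FGFBP1 (0.97), a carrier protein of fibroblast growth factors. Over all 8 libraries these r were 0.99, 0.46 and 0.92, so the likeness to NLRX1 was not seen when PBS replicate 4 was included. Such r are the highest of 12485 genes over only 7 libraries. The gene most like each of the 9 members had r of 0.97 to 0.99, so these names are a description only.

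CXCL1, CXCL2 and CXCL3, the GRO chemokines, bind CXCR2, and CXCL1 was the most abundant of the 3. CXCL1 measured 4.33, 6.93, 10.1 and 7.54 FPKM in PBS replicates 1 to 4 and 5.30, 3.44, 3.88 and 7.47 in gluconate replicates 1 to 4. PBS replicate 3 was highest and gluconate replicates 2 and 3 were lowest, with PBS replicate 1 below 2 of the 4 gluconate libraries. Between the groups, the log2 fold change was -0.52 (SE 0.29, 95% interval -1.17 to 0.13, limma adjusted p = 0.74, exact permutation p = 0.171), and -0.48 without PBS replicate 4. Its unadjusted p, 0.106, was the smallest of the 9 members. It was 0.0225 without PBS replicate 1, with a log2 fold change of -0.74, and 0.0281 without gluconate replicate 4, with -0.73. It was 0.273 without PBS replicate 3, with -0.34, and 0.263 without gluconate replicate 2, with -0.36, so single libraries moved the value in both directions.

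CXCL2 measured 2.10, 2.23, 5.13 and 3.40 FPKM in PBS and 2.54, 1.80, 1.85 and 2.69 in gluconate. PBS replicates 3 and 4 were above all gluconate libraries, and PBS replicates 1 and 2 lay among them. Its log2 fold change was -0.45 (SE 0.28, interval -1.07 to 0.17, limma adjusted p = 0.74), -0.39 without PBS replicate 4 and -0.20 without PBS replicate 3. CXCL3 was the steadiest member, at 1.02, 0.859, 1.21 and 0.941 FPKM in PBS and 0.761, 1.09, 1.21 and 1.04 in gluconate. Its log2 fold change was 0.01 (SE 0.19, interval -0.42 to 0.45). It spanned 1.59-fold over the 7 deep libraries, a range that 24.1% of the genes tested matched or exceeded, on 33 to 52 fragments each.

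The 3 GRO genes lie on chromosome 4 with CXCL8: CXCL8 from 73740506 to 73743716 and CXCL1 from 73869393 to 73871242 on the plus strand, CXCL3 from 74036589 to 74038807 and CXCL2 from 74097035 to 74099293 on the minus strand (GENCODE 29, GRCh38). Their transcripts are near copies in part, so fragments may have been split between them and their levels are uncertain to that extent. Of the 30-base windows of CXCL1, 16.2% also occur in CXCL2, with a longest shared run of 77 bases, and CXCL3 shares a run of 97 bases with CXCL2. CXCL1 and CXCL2 followed one another over the 8 libraries (r = 0.89, rho = 0.98, and r = 0.80 over 6 without PBS replicate 3 and gluconate replicate 2), with a ratio between 1.91 and 3.10. CXCL3 did not follow CXCL1 in the same way (r = -0.06), and the ratio of CXCL1 to CXCL3 ran from 3.17 to 8.29.

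The promoters of the 3 GRO genes are shown to set this against how alike they are. Each run holds bases 140 to 21 before the RefSeq start (GRCh38.p14, 5′ to 3′): chr4:73869253-73869372 on the plus strand for CXCL1, and chr4:74099216-74099335 and chr4:74038710-74038829 on the minus strand for CXCL2 and CXCL3. Capitals mark GGGNNTTTCC, a stricter kappaB-like pattern whose matches all belong to GGGNNNNNCC as well.
CXCL1: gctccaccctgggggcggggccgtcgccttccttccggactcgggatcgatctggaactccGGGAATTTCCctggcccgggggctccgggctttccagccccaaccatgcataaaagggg
CXCL2: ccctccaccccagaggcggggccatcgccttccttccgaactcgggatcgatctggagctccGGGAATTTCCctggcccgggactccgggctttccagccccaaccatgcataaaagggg
CXCL3: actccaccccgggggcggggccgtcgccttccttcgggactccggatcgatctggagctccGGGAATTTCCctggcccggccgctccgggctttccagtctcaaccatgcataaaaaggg

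In global alignments of these 120-base runs, CXCL1 was 91.7% identical to CXCL2 and 91.7% to CXCL3, and CXCL2 was 88.5% identical to CXCL3. GGGNNTTTCC began 79 bases before the start in CXCL1 and CXCL3 and 78 before it in CXCL2, with the same 10 letters in all 3. It occurred in 1.91% of the 35116 promoters and in 4 of the 7 members, the fourth being CCL20 on the opposite strand. Over this stretch the promoters of CXCL1 and CXCL3 were as alike as those of CXCL1 and CXCL2. The r of their levels over the 8 libraries was -0.06 against 0.89. CXCL3 rested on 33 to 52 fragments in the deep libraries and on 4 in PBS replicate 4. Its interval was 0.524 to 1.07 FPKM in its lowest library and 0.906 to 1.59 in its highest, so these overlapped. How far counting error set its r was not tested.

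CXCL8, or interleukin-8, the main human neutrophil attractant, measured 3.04, 1.83, 5.36 and 1.97 FPKM in PBS and 3.13, 2.09, 2.61 and 3.43 in gluconate. PBS replicate 3 was highest and PBS replicate 2 lowest, so that all 4 gluconate libraries lay within the PBS range. Its log2 fold change was -0.00 (SE 0.32, interval -0.71 to 0.71, limma adjusted p = 0.997), -0.16 without PBS replicate 4 and 0.31 without PBS replicate 3. The CXCL8 promoter window held the AP-1-like pattern TGANTCA, a palindrome counted once, from 137 to 131 bases before the start and TATAAA from 31 to 26 before it. TGANTCA occurred in 7.71% of promoters and also in CXCL11, and TATAAA in 11.5% and also in CCL20 and CXCL11.

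CCL20 measured 2.31, 1.91, 4.90 and 2.73 FPKM in PBS and 3.42, 2.05, 2.07 and 1.74 in gluconate. PBS replicate 3 was highest, and gluconate replicate 4, the library with the most CCL5 and CXCL10, had the least CCL20. The log2 fold change was -0.30 (SE 0.30, interval -0.96 to 0.37, limma adjusted p = 0.765), -0.30 without PBS replicate 4 and -0.03 without PBS replicate 3, the library with the most CCL20. CCL20 lies on chromosome 2 from 227805739 to 227817564 on the plus strand (GENCODE 29, GRCh38).

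CXCL16 differs from the others in being made as a membrane protein with a chemokine domain on a stalk, which ADAM10 and ADAM17 cleave to release it. It measured 1.89, 2.69, 1.15 and 0.422 FPKM in PBS and 1.35, 2.98, 1.70 and 3.17 in gluconate. Gluconate replicates 4 and 2 were highest, followed by PBS replicate 2, and PBS replicate 4 was lowest on 4 fragments (interval 0.115 to 1.08 FPKM). The log2 fold change was 0.72 (SE 0.49, interval -0.39 to 1.82, limma adjusted p = 0.74), the largest in size of the 9 on this scale, and 0.25 without PBS replicate 4. With all 8 libraries it was 0.42 with a pseudocount of 1 and 0.40 with voom on the recovered fragments, where it was no longer the largest. The gene most like CXCL16 over the 7 deep libraries was CD40 (r = 0.99), a receptor of the tumor necrosis factor family. This too is the highest r of 12485 genes and a description only. CXCL16 lies on chromosome 17 from 4733526 to 4739922 on the minus strand (GENCODE 29, GRCh38), and 85 of its exonic bases overlap exons of MED11 on the other strand, where reads counted without strand could belong to either gene.

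Set side by side, the members peaked in 2 different tumors, 1 of each group. CCL5, CXCL10, CXCL11 and CXCL16 were highest in gluconate replicate 4, whereas CCL20, CXCL1, CXCL2, CXCL3 and CXCL8 were highest in PBS replicate 3, the library with the lowest CCL5 and CXCL11. For CXCL3 the margin over gluconate replicate 3, and for CXCL16 that over gluconate replicate 2, was within counting error. Over the 7 deep libraries, r between CCL20, CXCL1, CXCL2 and CXCL8 ranged from 0.46 to 0.88 over 6 pairs, and r of these 4 with CCL5, CXCL10 and CXCL11 from -0.69 to 0.05 over 12 pairs. CXCL3, although highest in the same library as the 4, had r of -0.01 to 0.36 with them, and CXCL16 had r of 0.35 to 0.59 with CCL5, CXCL10 and CXCL11. By ranks the sets were less distinct, with rho from 0.11 to 0.96 within the 4 and from -0.43 to 0.21 between the sets, where 9 of the 12 were above 0. These groupings were made after the values were seen and have no test.

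**Figure D1:**
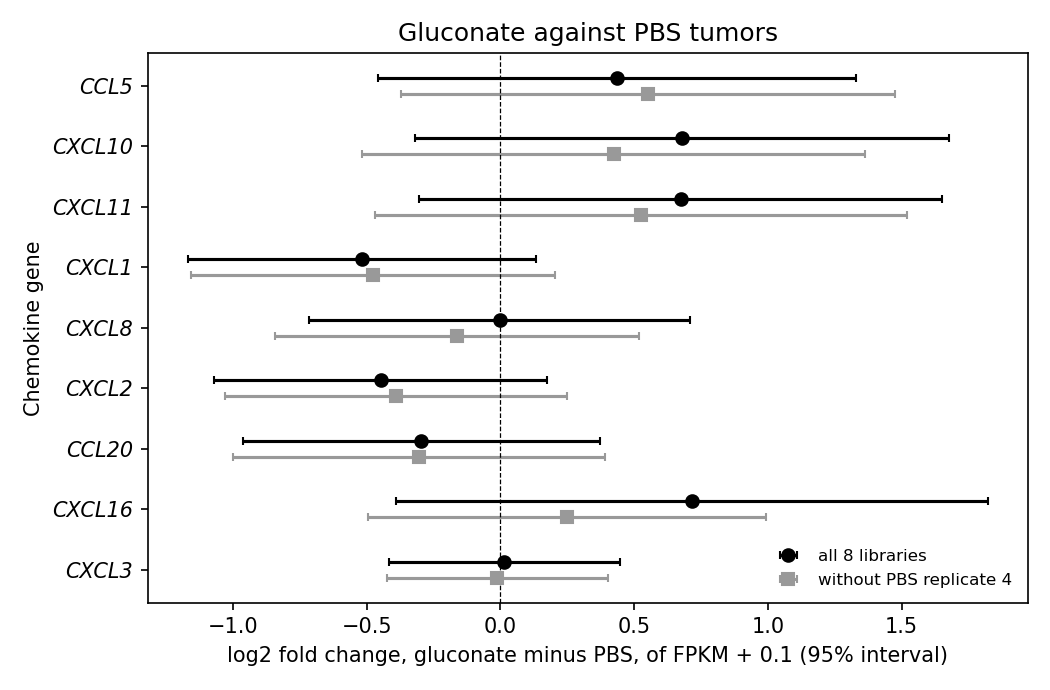
Log2 fold change of gluconate minus PBS, with 95% limma intervals, for 9 chemokines in all 8 libraries (circles) and without PBS replicate 4 (squares). Every interval includes 0.

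Genes of the pathways that commonly control chemokines were read from lists. Of 24 interferon response genes, 23 were tested, of which 3 had an unadjusted p under 0.05 with a positive fold change (IRF9, ISG15 and IFI6), 0 with a negative one and 0 an adjusted p under 0.05. Without PBS replicate 4 there were 2, IRF9 and ISG15, and 0. Over all genes, 3.13% had such a p with a positive and 1.49% with a negative fold change, and 2.83% and 3.36% without PBS replicate 4. The median log2 fold change of the list was 0.57, beside 0.07 for all genes, and 0.28 without PBS replicate 4, beside -0.00. The value was above 0 for 23 of 23, beside 66.4% of all genes, and without PBS replicate 4 for 23 of 23 beside 48.9%. RSAD2 was the highest of the list at 1.04 and MX2 the lowest at 0.23 (limma adjusted p = 0.74 for both), and without PBS replicate 4 they were 0.45 and 0.07.

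The mean log2(FPKM + 0.1) of the interferon list was 4.39, 4.45, 3.60 and 3.04 in PBS replicates 1 to 4 and 4.15, 4.36, 4.57 and 4.70 in gluconate replicates 1 to 4. PBS replicates 3 and 4, the lowest libraries for CXCL10 and CXCL11, were also lowest here. IFNB1, which encodes interferon beta, was at 2.95, 1.43, 0.657 and 0.603 FPKM in PBS and 1.89, 1.14, 2.45 and 5.19 in gluconate. It followed CXCL10 (r = 0.95, rho = 0.93 over 8) and CXCL11 (r = 0.93, rho = 0.90), and without PBS replicate 4 and gluconate replicate 4 r was 0.87 and 0.84 over 6. With CCL5, r was 0.70 (rho 0.67) and 0.75 over those 6. With the mean of the interferon list itself, r over 8 was 0.82 for CXCL10, 0.76 for CXCL11 and 0.27 for CCL5, and over the 7 deep libraries 0.75, 0.80 and 0.56. The IFNB1 difference itself was 0.94 on the log2 scale (limma adjusted p = 0.74) and 0.66 without PBS replicate 4, and the part of interferon in the chemokine levels was not tested.

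Of 22 genes for NF-kappaB activation and early targets, 19 were tested, and 2 had an unadjusted p under 0.05 with a positive fold change: SOD2, a mitochondrial superoxide dismutase with a log2 fold change of 0.53, and IL6, a cytokine, with 0.60 (limma adjusted p = 0.74 for both), or 0.48 and 0.44 without PBS replicate 4. Over all genes the shares were 3.13% with a positive and 1.49% with a negative fold change. Without PBS replicate 4 there was 1 in each direction, where all genes had 2.83% and 3.36%. The list's median log2 fold change was 0.13, beside 0.07 for all genes, and 0.05 without that library, beside -0.00. LIF was highest at 0.73 (limma adjusted p = 0.74), 0.26 without PBS replicate 4, and NFKBIZ lowest at -0.23 (limma adjusted p = 0.798). NFKBIZ, which encodes a nuclear partner of NF-kappaB, was 3.63 FPKM in PBS replicate 3 and 1.19 to 1.93 in the other 7, so it was highest in the library with the most CXCL1, CXCL2, CXCL8 and CCL20. The list as a whole did not follow these 4: its mean had r of 0.07, -0.02, 0.23 and -0.41 with them over the 7 deep libraries, against 0.75 with CCL5, 0.69 with CXCL10 and 0.66 with CXCL11. Over all 8 the latter were 0.42, 0.79 and 0.70. RELA measured 42.7 to 62.7 FPKM and NFKBIA 50.9 to 70.7 over the 8 libraries.

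Transcripts of the receptors for these chemokines were scarce among the human genes. Of 17 receptors measured, 14 stayed under 1 FPKM in every library. CXCR3, the receptor of CXCL10 and CXCL11, was above 0 in gluconate replicate 4 only, at 0.0118 FPKM, and CXCR6, the receptor of CXCL16, reached 0.00922. CCR6, the receptor of CCL20, reached 0.0444. The 3 receptors that passed the filter were CXCR4, which binds CXCL12, at 4.58 to 12.4 FPKM, CCR10 at 4.71 to 7.23, and ACKR3, a scavenging receptor of CXCL12 and CXCL11, at 1.78 to 4.48.

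ACKR3 measured 3.71, 1.92, 1.78 and 2.76 FPKM in PBS and 3.56, 3.51, 4.02 and 4.48 in gluconate, with PBS replicate 1 above 2 of the gluconate libraries. Its log2 fold change was 0.65, the highest of the receptors, with an unadjusted limma p under 0.05 and an adjusted p of 0.74. That made 1 of the 3 receptors tested, beside 3.13% of all genes with such a p and a positive fold change. Without PBS replicate 4 the log2 fold change of ACKR3 was 0.71, and again 1 of 3 had such a p, beside 2.83% of all genes. CXCR4 was the lowest at -0.46 (limma adjusted p = 0.74), and -0.35 without PBS replicate 4. It measured 6.00, 6.20, 12.4 and 10.3 FPKM in PBS and 7.47, 5.70, 4.58 and 6.77 in gluconate, so PBS replicate 3 was highest here too. CCR10, the receptor of CCL28, had a log2 fold change of 0.12 (limma adjusted p = 0.776).

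Other chemokines were low. Of 37 listed, 19 were measured, 15 of these stayed under 1 FPKM in every library and 3 were tested, with 0 under an unadjusted p of 0.05, beside 4.62% of all genes. CCL28, a ligand of CCR10, was the highest at 1.84 to 2.62 FPKM and had the lowest log2 fold change of the 3, 0.01, or 0.07 without PBS replicate 4. CCL4, an attractant of monocytes and T cells, had the highest, 0.72 (limma adjusted p = 0.753), and 0.02 without PBS replicate 4, where it was listed at 0. CCL4 and CCL4L2, like CCL3 and CCL3L3, are near copies whose reads may be split. CXCL9, the third CXCR3 ligand, reached 0.0269 FPKM, and CXCL12, the ligand of CXCR4, reached 0.0177.

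Of 12 genes that process chemokines, 11 were measured and 6 tested, with 0 under an unadjusted p of 0.05, beside the same 4.62% of all genes. ADAM10 measured 13.7 to 17.8 FPKM and ADAM17 7.01 to 14.2, so both enzymes known to release CXCL16 were present at higher levels than CXCL16 itself in every library. FAP, a serine protease, had the highest log2 fold change, 0.70 (limma adjusted p = 0.74), and 0.42 without PBS replicate 4. MMP1, a collagenase, had the lowest, -0.11 (limma adjusted p = 0.942), and 0.14 without that library.

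Markers of other human cell types were read in the same libraries, since fewer cells of a type and less RNA per cell cannot be told apart in bulk samples. Of 11 leukocyte markers measured, 9 stayed under 1 FPKM. PTPRC, which encodes CD45, reached 0.0165 FPKM, CD14 reached 0.0302 and NKG7 reached 0.0260. CD68, which epithelial cells can also make, was at 19.7 to 28.0. The summed level of the leukocyte markers, most of it CD68, was 26.6 to 29.9 FPKM in PBS and 21.4 to 28.7 in gluconate. Of 8 endothelial markers, 7 stayed under 1 FPKM, with CDH5 at most 0.0301. Of 5 mesothelial markers measured, 1 stayed under 1 FPKM. MSLN was at 103 to 171 FPKM, and WT1 was at 6.58 in PBS replicate 4 and 1.07 to 1.82 elsewhere. The fibroblast list was mixed, with COL1A1 at 41.4 to 182 FPKM and PDGFRA at most 0.0136, and its sum was 207 to 432 FPKM in PBS and 387 to 524 in gluconate. The low end was PBS replicate 4, and the other PBS libraries began at 347 FPKM. SPARC, at 161 to 338 FPKM, was the highest gene of the list. The log2 fold change was above 0 for 6 of the 6 fibroblast genes tested, beside 66.4% of all genes. Without PBS replicate 4 it was above 0 for 5 of 6, beside 48.9%.

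The tumor label was read against PAX8 and KRT8, a transcription factor of the Müllerian lineage and a keratin of simple epithelium, which measured 32.4 to 50.7 and 700 to 1051 FPKM. Of the same list, KRT7 was at 124 to 393 FPKM, KRT18 at 513 to 987, EPCAM at 10.3 to 22.3 and WFDC2 at 0 to 2.23. KRT7 had a log2 fold change of 0.73 (limma adjusted p = 0.74), and 0.48 without PBS replicate 4. KRT19, CDH1, MUC16 and SOX17 stayed at most at 0.0357, 0.159, 0.00168 and 0.216 FPKM. CCL5 at 26.0 to 115 FPKM was thus measured in libraries in which the human leukocyte genes PTPRC, CD14 and NKG7 were at or near 0. Mouse transcripts of the host were not measured separately, and their part in any value was not tested.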

How the data were processed

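The 8 libraries were polyA RNA-seq of orthotopic OVCAR8 tumors, grouped by the labels. The authors deposited FPKM values per gene symbol on GRCh38. The aligner and the counting are not given in the sources used here. Columns lettered C and T were read as PBS and gluconate from the study's plot of T over C. That plot's legend speaks of cells, and the labels speak of tumors. The other 12 libraries of the series were not analysed here.

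Fragments and depth were recovered from the steps of the values, with the smallest gene length that made them whole multiples of 1 fragment. The share of 100.0% whole within 0.01 was fixed by that search and is no check of it. The recovery was tested only on data simulated from the recovered lengths, depths and counts. The 12486 genes averaging 0.5 FPKM or more were log2 transformed after adding 0.1 and compared with limma (version 3.58.1 under R 4.3.3, eBayes with trend, Benjamini-Hochberg), and single genes with two-sided exact permutation tests in scipy 1.17.1. A fold change on this scale understates changes of low genes. Members, gene lists and patterns were chosen with earlier results of these data known. All members were named. From other lists, the genes with the highest and lowest fold change, receptors and other chemokines of at least 5 FPKM on average, and the 3 genes most like CCL5 were named, and further ones after their values were seen. Promoters are from RefSeq (GRCh38.p14, 7 of 10 members), coordinates from GENCODE 29. Other pseudocounts, filters, scalings, fits and left-out libraries were alternatives.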

Additional observations from a re-analysis of the deposited data

How the results depend on the processing

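Under 16 alternatives for each of the 9 chemokines, 129 of 144 log2 fold changes kept their sign and their side of an unadjusted p of 0.05, and no member passed after adjustment in any. Values near 0 changed sign. CXCL3 was -0.048 with scaling by median ratios, -0.0088 with limma's voom on the recovered fragments, -0.0042 with voom without PBS replicate 4 and -0.063 to 0.14 with 1 library left out. CXCL8 was 0.00039 with a pseudocount of 0.01 and -0.19 to 0.31 with 1 library left out. The cause was not tested. With 1 library left out, CCL5 ran from 0.11 to 0.66, CCL20 from -0.49 to -0.03, CXCL1 from -0.74 to -0.34, CXCL2 from -0.61 to -0.20, CXCL10 from 0.31 to 0.94, CXCL11 from 0.32 to 0.91 and CXCL16 from 0.25 to 1.05. Members with an unadjusted p under 0.05 numbered 0 to 1 over the left-out libraries, the 1 being CXCL1. Over all genes this count was 577, 1028 with no filter on low values, in which more genes were tested, and 267 to 1214 with 1 library left out: 1214 without PBS replicate 1, 873 without PBS replicate 2, 289 without gluconate replicate 3 and 267 without gluconate replicate 4. Both voom fits were added after the data were seen and called 593 and 755 genes at that line and 0 after adjustment. Planned count tests with edgeR and DESeq2 were not run, and voom was the only fit made on the recovered fragments.

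With the replicate number as a block, 1 member, CCL5, had an unadjusted p under 0.05 (0.0481, at the same log2 fold change of 0.44), as did 470 of the 12486 genes tested. The labels do not say that a number marks a shared mouse or day. Deviations of same-numbered libraries correlated at -0.18, 0.08, 0.17 and -0.06, and 2 of the 4 numbers had their own partner as the best match. So few values cannot decide whether same-numbered samples share anything beyond the number.

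In PBS replicate 4 depth limits the lower members: 3 fragments there amount to 0.316 FPKM for CXCL16 and 0.706 for CXCL3. Intervals around the group differences are wide with 4 libraries a group.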
